A study of Mus musculus with 6 samples.

Results

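The 37 genes described here encode the enzymes that attach lipids to proteins or take them off again. They comprise 20 palmitoyltransferases of the Zdhhc family and the partner subunit Golga7, 7 thioesterases, both N-myristoyltransferases, 5 prenyltransferase subunits and 2 enzymes that finish prenylated proteins. A gene was a member if its symbol was on that list and stood alone in the annotation of a probe set, and a gene with several such probe sets was represented by the brightest one on average. The measured value that entered the choice was thus the mean intensity, while the list itself was drawn up with earlier results of these data known. All 37 were found among the 19938 genes with a probe set of their own, and all 37 passed the filter on dim genes, which left 13956 genes for testing.

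Palmitoylation joins a fatty acid to cysteines through a thioester and can be undone, so palmitoylated proteins move on and off membranes. Zdhhc enzymes, named after an Asp-His-His-Cys motif, carry it out in the membranes of the endoplasmic reticulum, the Golgi and the cell surface, and thioesterases reverse it. N-myristoylation of an N-terminal glycine and prenylation of C-terminal cysteines are stable anchors. In T cells the kinases Lck and Fyn carry both myristate and palmitate, the adaptor Lat is palmitoylated, and Ras and Rab GTPases are prenylated, which is how these proteins reach the membranes on which antigen receptor signalling takes place.

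Expression was measured on 6 one-colour arrays of T-cell acute lymphoblastic leukemia (T-ALL) from mice. Haematopoietic progenitors with a conditional Zfx allele (Zfx fl/y) and a Cre-ER transgene, a Cre recombinase that tamoxifen activates, had been transduced with a Notch-IC retrovirus, which gave the 3 independent leukemias 14843, 14844 and 14846. Cells of each were passed to sublethally irradiated secondary recipients, and gavage of Tamoxifen (5 mg per day for 3 days) or Vehicle began 10 days later. GFP-positive leukemia cells were sorted 48 hours after the last dose. The 3 arrays labelled Tamoxifen carry the genotype ZFX null and the 3 labelled Vehicle carry ZFX flox, 1 array of each per leukemia line. Both groups carry the Notch-IC construct, the floxed allele and Cre-ER. The promoter of the Cre-ER transgene is not given in the sources used here. None of these 6 arrays comes from Tamoxifen-treated cells without the floxed allele, so effects of the drug and of the deletion cannot be told apart. The labels describe each array's cells as sorted from a single treated mouse, and the n of 3 counts leukemias.

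The arrays had RMA-normalized intensities with medians between 202 and 208. The single Zfx probe set, whose position relative to the deleted part is not given in the sources used here, was at 10.94 ± 0.06 log2 intensity in Tamoxifen arrays and 10.87 ± 0.14 in Vehicle arrays (SD, n = 3 each), with a limma adjusted p of 0.48, and so does not check the labels. Of 14 T-ALL markers 13 were measured, at mean levels from 10.99 to 13.40, and 0 of them were called between treatments. Their log2 differences had a median of -0.09, and only Cd5 and Lat were above 0, at 0.07 and 0.01. Notch3 had the largest, -0.46, lower in all 3 lines without overlap, at a limma adjusted p of 0.0961. Ptcra, Cd2, Notch1 and Dtx1 were also lower in all 3 lines, at -0.27, -0.19, -0.11 and -0.10. The summed linear intensity of the 13 markers was 70747 to 78371 in Tamoxifen arrays and 77527 to 82426 in Vehicle arrays. The part of these markers in the results was not tested. Among 10 myeloid markers 0 of 7 tested were called, and their summed linear intensity was 2249 to 2754 in Tamoxifen arrays and 2127 to 2501 in Vehicle arrays. Csf1r, Cd14 and Adgre1, which define monocytes and macrophages, were below the filter. Itgam and Lyz2 were above it and higher with Tamoxifen in all 3 lines, by 0.29 and 0.24 log2 units. Their limma adjusted p-values were 0.135 and 0.132. The other tested myeloid markers gave -0.09 to 0.03, and the part of these markers in the results was not tested. B cell, erythroid and stromal or hepatocyte markers had 2, 2 and 5 tested genes, of which 0 were called. Cd79a, Ms4a1, Ebf1, Klf1, Alb and Ttr of those lists were below the filter. Genes of those lists above it included Cd79b, at a mean of 8.58 in Tamoxifen and 8.62 in Vehicle arrays, and Pecam1, at 11.08 and 10.98. Because these are bulk RNA samples, fewer cells of one kind and less RNA per cell cannot be told apart.

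Zdhhc1, Zdhhc18, Zdhhc20, Zdhhc17 and Zdhhc8 fell in Tamoxifen arrays, and no lipidation enzyme was called higher. Treatments were compared with limma on log2 intensity with the leukemia line as a block, and a gene was called at a Benjamini-Hochberg adjusted p under 0.05 over all 13956 tested genes. The 5 calls lower and 0 higher among the 37 members, 13.5%, stand beside 6.23% of all tested genes called in either direction, 4.93% lower and 1.3% higher. All 5 belong to the 20 Zdhhc genes, while 0 of the 17 other members were called. The members were proposed with these results known, so the shares are given side by side and were not tested against each other. Over all tested genes 688 were lower and 182 higher, and 562 and 412 when arrays were instead centred on the tested genes' median. Under that centring 5 members were lower and 1, Lypla1, was higher.

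**Figure D1:**
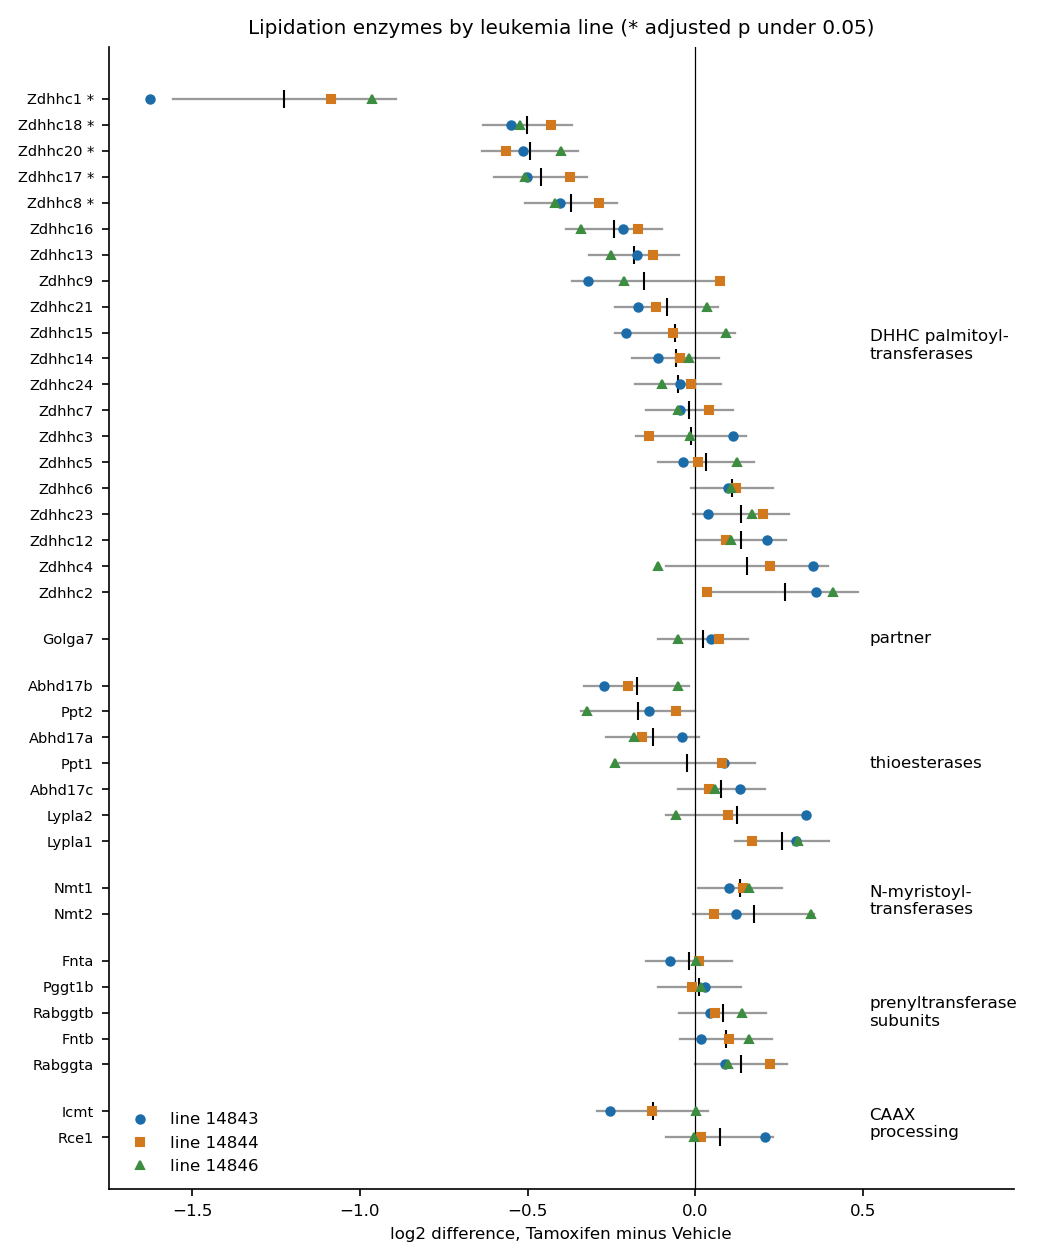
Log2 difference in intensity, Tamoxifen minus Vehicle, of each of the 37 genes (rows, grouped by role). Points are the 3 leukemia lines, the black tick their mean and the grey bar limma's 95% interval, and an asterisk marks an adjusted p under 0.05. The 5 called transferases sit left of 0 in all 3 lines, from -1.63 to -0.29, and the means of the other 32 genes lie between -0.24 and 0.27.

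Zdhhc1, a palmitoyltransferase of the endoplasmic reticulum reported to bind the innate immune adaptor STING, had the largest difference. It was at 7.12, 7.07 and 7.05 log2 intensity in the Tamoxifen arrays of lines 14843, 14844 and 14846, against 8.75, 8.16 and 8.01 in their Vehicle arrays. The groups did not overlap, and the Tamoxifen arrays lay close together while the Vehicle arrays spread over a wider range. The mean was 7.08 ± 0.04 in Tamoxifen and 8.31 ± 0.39 in Vehicle arrays (SD, n = 3 each), a 2.34-fold fall with a log2 difference of -1.23 ± 0.13 (SE) and an adjusted p of 0.0113. The within-line differences were -1.63, -1.09 and -0.96. With Tamoxifen arrays so close together, the order of these differences follows from that of the Vehicle values and adds nothing to it. Its mean over the 6 arrays was 0.99 above the filter on dim genes at 6.70, and the table has no background call per probe set. The Tamoxifen arrays alone, at 7.05 to 7.12, lay closer to that filter than the Vehicle arrays. Whether a floor of the signal narrowed their spread or shaped the differences was not tested.

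Zdhhc18, which palmitoylates H-Ras and N-Ras at the Golgi, had 10.67, 10.83 and 10.99 log2 intensity in Tamoxifen arrays of lines 14843, 14844 and 14846 and 11.22, 11.26 and 11.51 in Vehicle arrays. Every Tamoxifen array was below every Vehicle array. The fitted log2 difference was -0.50 ± 0.05 (SE), a 1.41-fold fall, with an adjusted p of 0.0110. Zdhhc20, a transferase of the cell surface that acts on growth factor receptors, had 10.32, 10.15 and 10.37 in Tamoxifen arrays against 10.84, 10.72 and 10.78 in Vehicle arrays. These groups did not overlap either, and the difference was -0.49 ± 0.06 (SE), or 1.41-fold, with an adjusted p of 0.0132.

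Zdhhc17, the ankyrin-repeat transferase first described as huntingtin-interacting protein, had 8.98, 9.14 and 8.81 log2 intensity in Tamoxifen arrays against 9.48, 9.51 and 9.32 in Vehicle arrays. The groups did not overlap, and the log2 difference was -0.46 ± 0.06 (SE), a 1.38-fold fall with an adjusted p of 0.0148. Zdhhc8, known for its place in the region deleted in human 22q11 syndrome, had 9.99, 10.13 and 10.23 in Tamoxifen arrays against 10.39, 10.42 and 10.65 in Vehicle arrays. It had the smallest difference of the called genes, -0.37 ± 0.05 (SE), or 1.29-fold, with an adjusted p of 0.0241, again without overlap. In each of the 5 genes the Tamoxifen array of a line was below the Vehicle array of the same line.

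**Figure D2:**
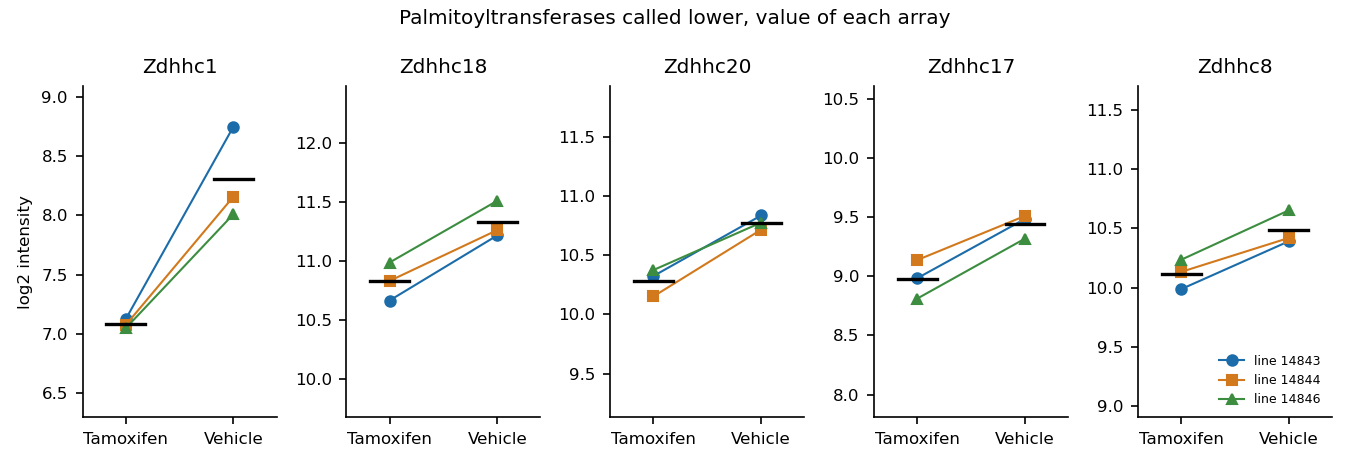
Log2 intensity of the 5 called palmitoyltransferases in each array, Tamoxifen on the left and Vehicle on the right. Points joined by a line come from the same leukemia, black bars are group means (n = 3 arrays each), and every panel spans the same log2 range. All 15 joining lines run upward to Vehicle, most steeply for Zdhhc1.

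Zdhhc1, Zdhhc17, Zdhhc18 and Zdhhc20 stayed past the threshold when line 14843 was left out (adjusted p 0.00555 to 0.0426) and when line 14846 was (0.0132 to 0.0368). Without line 14844 none of the 5 passed, at adjusted p-values from 0.0828 to 0.114, although the differences there were -1.30 for Zdhhc1 and -0.54 to -0.41 for the others, and 70 of all genes were called. Zdhhc8 missed the threshold without line 14843 and without line 14846 as well, at 0.0746 and 0.0615. Without the pairing of arrays by line Zdhhc1 and Zdhhc20 were called, both at 0.0342, while Zdhhc8, Zdhhc17 and Zdhhc18 missed the threshold at 0.132, 0.0803 and 0.0901.

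Zdhhc17 and Zdhhc20 were the members with several probe sets. The other Zdhhc17 probe set gave -0.51 ± 0.06 (SE) and an adjusted p of 0.0110. For Zdhhc20, a probe set with a mean of 5.78, below the filter, gave -0.37 at an adjusted p of 0.0213, and one with a mean of 7.21 gave -0.09 at 0.321, so the probe sets of Zdhhc20 disagree in size though not in sign. In the RefSeq gene table of assembly GRCm38.p6 no gene overlapped any of the 5. Tppp3, which codes for a tubulin-binding protein, lies within 1000 bases of Zdhhc1 and had a difference of 0.02 with an adjusted p of 0.805. Ccdc188 lies within 1000 bases of Zdhhc8 and was not among the tested genes.

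Zfx is a zinc finger transcription factor that binds near the starts of many genes, so the promoters of the called transferases are shown, each from 250 bases before to 50 after the annotated start, from RefSeq (GRCm38.p6), written 5′ to 3′ on the gene's strand. Shown are Zdhhc1, with the largest difference, Zdhhc18, with the smallest p of the 5, and Zdhhc17, whose promoter has the highest share of G and C among them, with CG dinucleotides in capitals.
Zdhhc1 (chr8:105497013-105497312, minus strand): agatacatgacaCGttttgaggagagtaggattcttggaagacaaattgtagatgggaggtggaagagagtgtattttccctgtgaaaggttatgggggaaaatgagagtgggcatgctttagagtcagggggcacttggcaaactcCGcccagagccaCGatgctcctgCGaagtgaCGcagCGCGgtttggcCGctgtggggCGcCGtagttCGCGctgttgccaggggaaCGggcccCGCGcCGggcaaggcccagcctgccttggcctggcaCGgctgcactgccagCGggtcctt
Zdhhc18 (chr4:133633380-133633679, minus strand): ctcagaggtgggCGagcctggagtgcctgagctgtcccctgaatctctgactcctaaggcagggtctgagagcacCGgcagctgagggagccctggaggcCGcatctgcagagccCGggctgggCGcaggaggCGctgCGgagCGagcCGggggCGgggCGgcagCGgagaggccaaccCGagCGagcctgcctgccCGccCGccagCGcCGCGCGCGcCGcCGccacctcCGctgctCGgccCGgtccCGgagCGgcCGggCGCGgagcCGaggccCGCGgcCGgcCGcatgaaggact
Zdhhc17 (chr10:111010017-111010316, minus strand): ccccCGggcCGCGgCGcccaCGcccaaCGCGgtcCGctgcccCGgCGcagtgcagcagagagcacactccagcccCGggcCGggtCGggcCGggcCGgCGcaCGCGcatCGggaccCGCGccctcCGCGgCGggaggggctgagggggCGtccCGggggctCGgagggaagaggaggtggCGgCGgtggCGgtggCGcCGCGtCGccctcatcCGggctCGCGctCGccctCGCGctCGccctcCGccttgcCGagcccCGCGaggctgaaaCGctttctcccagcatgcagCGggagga
The letters AGGCCT, the core of the motif reported for Zfx, which read the same on both strands, were in 0 of the 6 promoter windows of the 5 called genes and in 3372 of 32851 promoters in the table, 10.3%. With 6 windows, of which those of Zdhhc17 overlap, a count of 0 cannot be told apart from a share of 10.3%. Sequence beyond 50 bases after the start was not searched. Over all members 5 of 39 windows held the letters, 12.8%, among them windows of Ppt2, Abhd17a and Rabggta. The Rabggta windows with a match overlap and hold the same site, so windows of a gene are not independent. Among the other Zdhhc genes 1 of 12 windows held the letters. That window belongs to Zdhhc21, the transferase of Lck and Fyn in human cells, and is shown with the match, which starts 208 bases before the annotated start, in capitals.
Zdhhc21 (chr4:82859624-82859923, minus strand): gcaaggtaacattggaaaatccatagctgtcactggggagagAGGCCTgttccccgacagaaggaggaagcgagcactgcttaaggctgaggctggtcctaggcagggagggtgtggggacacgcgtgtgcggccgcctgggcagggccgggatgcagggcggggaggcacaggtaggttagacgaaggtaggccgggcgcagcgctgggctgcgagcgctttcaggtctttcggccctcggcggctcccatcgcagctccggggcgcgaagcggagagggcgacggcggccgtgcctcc
Zdhhc21 was not called, at 11.31, 11.41 and 11.43 log2 intensity in Tamoxifen arrays against 11.49, 11.52 and 11.39 in Vehicle arrays, a difference of -0.08 ± 0.06 (SE) with an adjusted p of 0.448. The median G and C content was 75.5% over the 6 windows of the called genes, 61.5% over the 12 windows of other Zdhhc genes and 52.7% over all promoters. Windows of 29 of the 37 members were in the table, and Zdhhc1 had the lowest content of the called genes, 59.3%, and Zdhhc17 the highest, 79.7%. Zdhhc17 entered the median with overlapping windows, at 79.7% and 75.0%. The uncalled Zdhhc genes ranged from 56.0% for Zdhhc6 to 80.7% for Zdhhc23, above every called gene.

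Of the 15 Zdhhc genes that were not called, 9 had a difference below 0 and 6 above 0. Zdhhc16 came closest to the threshold, at 9.44, 9.61 and 9.51 log2 intensity in Tamoxifen arrays against 9.66, 9.79 and 9.85 in Vehicle arrays. Its groups did not overlap, and the difference was -0.24 ± 0.06 (SE) with an adjusted p of 0.0757. It passed, at 0.0447, when each array was centred on its median over all genes. Zdhhc13, the closest relative of Zdhhc17 and also an ankyrin-repeat enzyme, was lower in all 3 lines, at -0.18 ± 0.05 (SE) with an adjusted p of 0.118.

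Zdhhc2, a transferase of endosomes and the cell surface, had the highest positive difference of the family, 0.27 ± 0.09 (SE), with an adjusted p of 0.143. It was at 10.73, 11.07 and 11.10 log2 intensity in Tamoxifen arrays against 10.37, 11.03 and 10.69 in Vehicle arrays, and its groups overlapped, with the Vehicle array of line 14844 above the Tamoxifen array of line 14843. Zdhhc4, Zdhhc12, Zdhhc23 and Zdhhc6 gave 0.15, 0.14, 0.14 and 0.11, with adjusted p-values from 0.205 to 0.387. Zdhhc4 went the other way in line 14846, at -0.11, and Zdhhc23 was dim, with a mean of 6.98, only 0.27 above the filter. The groups of Zdhhc4 and of Zdhhc23 overlapped. Zdhhc6 is the transferase of calnexin in the endoplasmic reticulum, and its 3 lines gave 0.10, 0.12 and 0.11, the Tamoxifen arrays lying above all Vehicle arrays.

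Zdhhc9, which works in a complex with Golga7 on H-Ras and N-Ras, was at 9.38, 9.62 and 9.36 log2 intensity in Tamoxifen arrays and 9.70, 9.55 and 9.57 in Vehicle arrays. The groups overlapped, lines 14843 and 14846 were lower with Tamoxifen and line 14844 was higher, and the difference was -0.15 ± 0.09 (SE) with an adjusted p of 0.343. Golga7 itself gave 0.02 ± 0.05 (SE), with a 95% interval from -0.11 to 0.16. The remaining members Zdhhc3 and Zdhhc7 of the Golgi, Zdhhc5 of the cell surface, Zdhhc14, Zdhhc15 and Zdhhc24 gave differences between -0.06 and 0.03, none past the threshold.

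The depalmitoylating enzymes had no call among 7 genes. Lypla1, the cytosolic acyl-protein thioesterase APT1, had the smallest adjusted p of all uncalled members, 0.0621. It was at 12.00, 12.03 and 12.17 log2 intensity in Tamoxifen arrays against 11.70, 11.86 and 11.86 in Vehicle arrays. The groups did not overlap, and the difference was 0.26 ± 0.06 (SE), or 1.20-fold. It passed in 3 alternatives, at 0.039 with trend and robust settings of the moderation, 0.049 after quantile normalization and 0.044 after centring on the tested genes.

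Its relative Lypla2 gave 0.12 ± 0.08 (SE), with the lines at 0.33, 0.10 and -0.06, so line 14846 went the other way. The membrane-bound depalmitoylases differed in sign, with Abhd17a at -0.13, Abhd17b at -0.17 and Abhd17c at 0.08, each of the same sign in all 3 lines and none past the threshold. The lysosomal thioesterases Ppt1 and Ppt2, which clear lipids from proteins under degradation, gave -0.03 and -0.17 with adjusted p-values of 0.875 and 0.207.

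The enzymes of the stable anchors had no call either. Nmt1 and Nmt2, which attach myristate, had Tamoxifen arrays above all Vehicle arrays, with Nmt1 at 11.54, 11.63 and 11.65 log2 intensity against 11.44, 11.49 and 11.49. Their differences of 0.13 ± 0.05 and 0.17 ± 0.07 (SE) missed the threshold, at adjusted p-values of 0.188 and 0.221. Fnta, the subunit shared by farnesyl transferase and geranylgeranyl transferase I, gave -0.02 ± 0.05 (SE). Fntb and Pggt1b, the specific subunits of those enzymes, gave 0.09 and 0.01.

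Rabggta and Rabggtb, which together prenylate Rab GTPases, gave 0.14 ± 0.06 and 0.08 ± 0.05 (SE), higher with Tamoxifen in all 3 lines but not past the threshold, at adjusted p-values of 0.213 and 0.389. Rce1, the protease that trims the C terminus of prenylated proteins, gave 0.07, and Icmt, the methyltransferase that caps it, gave -0.13, with adjusted p-values of 0.519 and 0.311. All 32 uncalled members had a difference under 0.3 in size on the log2 scale, and the 95% interval of each excluded a 2-fold difference, with outer bounds of -0.39 and 0.49. Of these 32, 8 had an unadjusted limma p under 0.05, 4 lower and 4 higher. With the called genes this makes 13 of the 37 members, beside 3330 of all 13956 tested genes. These counts were not tested against each other.

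**Figure D3:**
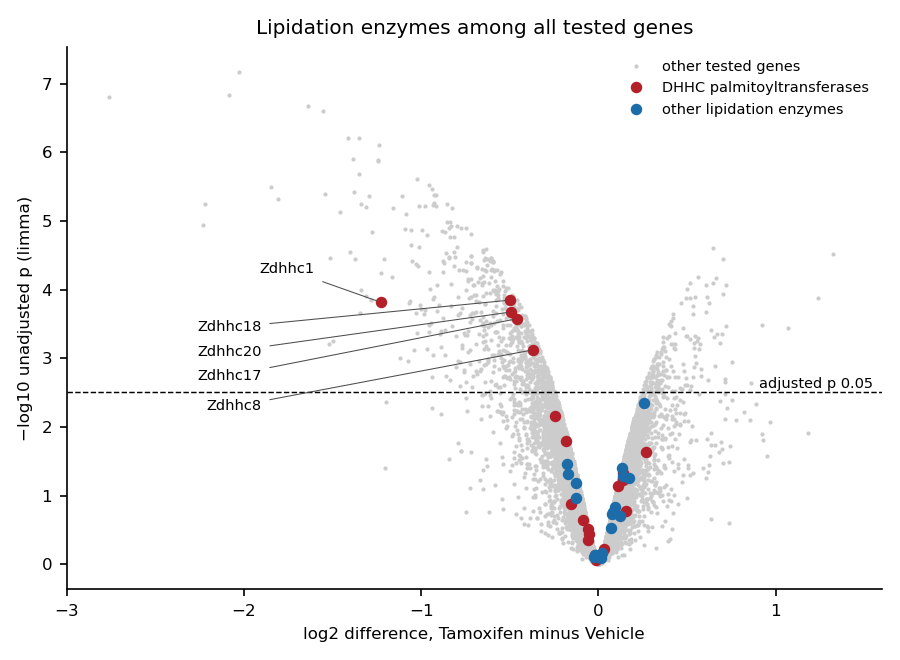
Each tested gene by its log2 difference in intensity (x axis, Tamoxifen minus Vehicle) and the −log10 of its unadjusted limma p (y axis). Grey dots are the other tested genes, red dots the 20 Zdhhc transferases and blue dots the 17 other lipidation enzymes, and the dashed line is the p at which the adjusted p reaches 0.05. The 5 named transferases lie above the line on the left and all blue dots below it.

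Over all 37 members the median log2 difference was -0.02, against 0.03 over all tested genes, and it was 0.04 after centring on the tested genes and 0.02 after quantile normalization. The median was -0.06 for the 20 Zdhhc genes and 0.07 for the 17 others, and 0.00 and 0.13 after centring on the tested genes, where the median over all genes was 0.08. Differences had 1 sign in all 3 lines for 23 members, 12 lower and 11 higher, or 62.2%, beside 48.8% of all tested genes, 20.2% lower and 28.6% higher. A difference below 0, of any size, was found for 20 members, 54.1%, beside 41.4% of all tested genes. Tamoxifen and Vehicle arrays did not overlap for 16 members, 43.2%, beside 23.7% of all tested genes.

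Over 4 lists of other genes of the lipidation pathways 2 of 52 tested genes were called, both lower, a share of 3.85%. Beside it stand 6.23% of all tested genes called in either direction and 4.93% called lower. These shares were not tested against each other. Of 18 accessory genes, which act on the same anchors or help the enzymes, 15 were tested and 1 was called. This was Pcyox1, the lysosomal lyase that frees the prenyl group from prenylcysteine, at 9.28, 9.49 and 9.46 log2 intensity in Tamoxifen arrays against 9.71, 9.91 and 9.85 in Vehicle arrays. The groups did not overlap, and the difference was -0.41 ± 0.05 (SE), or 1.33-fold, with an adjusted p of 0.0141. It missed the threshold without line 14844, at 0.115, and without the pairing by line, at 0.0708. Zdhhc11, Zdhhc19 and Zdhhc25, further members of the transferase family, were below the filter, and Zdhhc22 gave 0.03.

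Of 10 carriers, which shield lipid anchors while a protein crosses the cytosol, 8 were tested and 1 was called. Pde6d, which carries farnesylated proteins such as Ras, was at 11.45, 11.58 and 11.36 log2 intensity in Tamoxifen arrays against 11.72, 11.83 and 11.80 in Vehicle arrays. It fell by 0.32 on the log2 scale, with an SE of 0.06, an adjusted p of 0.0442 and no overlap. Its call was lost whichever line was left out, at 0.0947 to 0.166, without the pairing at 0.0932, after centring on the tested genes at 0.0540 and after quantile normalization at 0.0639.

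The isoprenoid supply list, with the mevalonate enzymes that make prenyl donors, had 7 tested genes and 0 calls. Pmvk, a mevalonate pathway kinase, and Mvd, its decarboxylase, had the smallest p of the list and gave -0.17 ± 0.06 and 0.19 ± 0.08 (SE), with adjusted p-values of 0.189 and 0.244. Among 22 tested lipidated proteins of T cells 0 were called. Rhoh, a prenylated GTPase needed for antigen receptor signalling, gave -0.25 ± 0.06 (SE) with an adjusted p of 0.0665, and was called at 0.0405 with trend and robust moderation and at 0.0406 after centring on all genes. The palmitoylated and farnesylated GTPase Nras gave 0.16 ± 0.05 (SE) at 0.135. Lck and Hras had no probe set of their own and were not analysed here. The adaptor Lat gave 0.01 and the kinase Fyn -0.10.

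**Figure D4:**
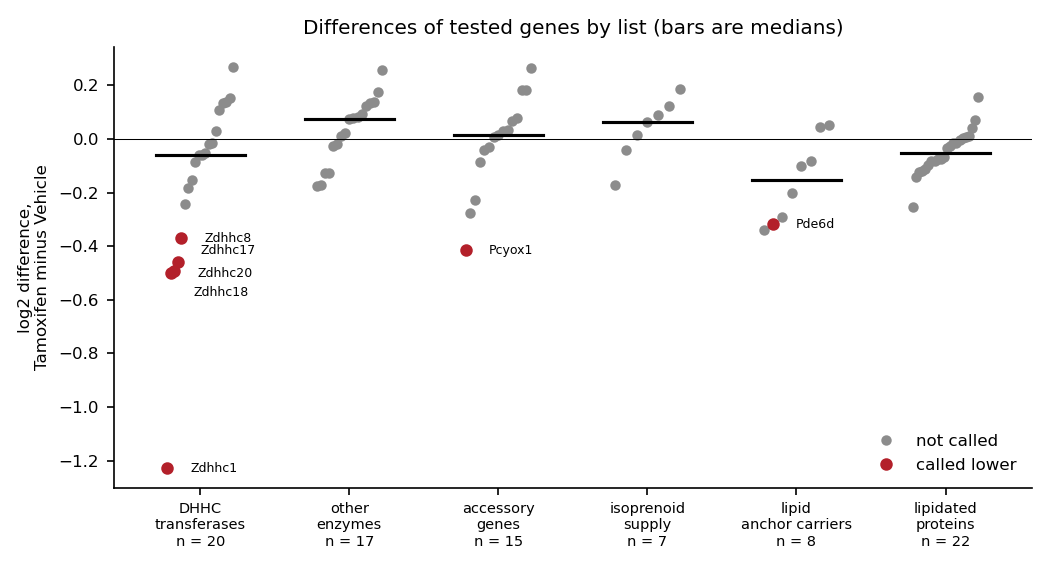
Log2 difference, Tamoxifen minus Vehicle (y axis), of the tested genes of 6 lists (x axis, with their number). Each point is 1 gene, ordered by value within its list, red points were called lower, and bars are medians. The red points are 5 among the Zdhhc transferases, Pcyox1 among the accessory genes and Pde6d among the carriers.

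The leukemia lines were compared over both treatments with the moderated F test of the same fit, a measure that the choice of members did not use (n = 2 arrays per line). Of the 37 members 0 were called, while 3.11% of all tested genes were, and the members' adjusted p-values lay between 0.124 and 0.971. The gap between the highest and the lowest line mean was 0.03 to 0.51 log2 units, with a median of 0.14, which was also the median over all tested genes. Of the members, 7 had an unadjusted p under 0.05 in this F test. The matching share over all tested genes was not computed, so the count is not read as a result about the members. Among the 7 tested myeloid markers 3 were called between lines, S100a8 with line means of 7.32, 8.47 and 7.58 (adjusted p 0.00722) and Itgam with 9.75, 8.78 and 8.77 (0.0203) in lines 14843, 14844 and 14846. The third was Lyz2, lowest in line 14843 and highest in line 14844 with a gap of 0.72 (0.0357). Their part in the line values of the members was not tested.

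Zdhhc15, an X-linked relative of Zdhhc2, had the smallest of these p-values, 0.00913. Its line means were 9.86, 9.92 and 9.51 log2 intensity in lines 14843, 14844 and 14846. Zdhhc2 had the widest gap, with means of 10.55, 11.05 and 10.90, and an adjusted p of 0.129 in the F test. It was lowest in line 14843 and highest in line 14844 like Lyz2 and S100a8, whereas Itgam was highest in line 14843. The order differed between Zdhhc15 and Zdhhc2, since line 14846 was lowest for Zdhhc15 and line 14843 for Zdhhc2. Of the transferases called between treatments, Zdhhc1 had the widest gap, 0.41, with line means of 7.94, 7.62 and 7.53. Zdhhc18 came next, with line means of 10.94, 11.05 and 11.25 and a gap of 0.31. Zdhhc8 and Zdhhc18 were lowest in line 14843 and highest in line 14846, and Zdhhc17 was lowest in line 14846. Of the prenyltransferase subunits Fntb spread most, at 8.95, 9.16 and 9.23.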

How the data were processed

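The authors deposited linear intensities, 1 per probe set. The submitters' processing notes name RMA and version 1.1 of Affymetrix Expression Console. RMA subtracts background, equalizes the distribution between arrays and combines probes, so differences in overall signal between arrays are removed. The log2 of each intensity was taken here. Of 35556 probe sets, 21789 had 1 symbol, 1621 several and 12146 none, and only the first were used. Per gene the probe set with the highest mean was kept, and genes at or above the 30th percentile of means (6.70) were tested. The fit was limma 3.58.1 in R 4.3.3 with line and treatment as terms, with 2 residual degrees of freedom and 3.47 added by moderation, and all p-values are two-sided. Arrays have no read depth, so their number limits the precision.

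The pairing comes from the series design, in which cells of each leukemia went to recipients of both treatments. Deviations from group means correlated at 0.64, 0.68 and 0.68 within lines. On data simulated from 13956 genes, 50% of genes changed by 0.3 and 96% of those changed by 0.5 (log2, n = 50 each) were called, and 7% of calls were false. In the simulation 200 genes changed, and normal noise was drawn independently for each gene with its moderated variance. These shares need not hold for the real arrays, where genes vary together.

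Members and lists were chosen with earlier results of these data known. Named with values in every array were called members and any with a difference of at least 0.3 in 1 direction in all lines, which named the same 5. From each other list up to 4 called genes, or else the 2 with the smallest p, were named. Members and other genes outside these rules were named after their values were seen. Alternatives were the fit without the block, other filters, moderation, scaling and probe set choices, and leaving out each line. Both centrings, on all probe sets and on the tested genes, were added after seeing the data.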

Additional observations from a re-analysis of the deposited data

How the results depend on the processing

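No called member or list gene changed direction under any alternative run. The count of called members, 5, was 2 without the replicate block and 0 to 4 when a line was left out. It was 4 to 6 under the other alternatives, which were filters, moderation, scalings and the mean of probe sets, and the 50th percentile filter removed Zdhhc1 before the test. The count over the other pathway lists, 2, was 0 without the replicate block, 4 with trend and robust moderation, 5 after centring on the median of all genes, 1 after centring on the tested genes, 1 after quantile normalization and 0 to 1 without a line. The cause of these shifts was not tested. Over all genes 870 were called, against 295 without the block, 498 without line 14843 and 70 without line 14844. The count over all genes was 879 with trend and robust moderation and 1082 after centring on the median of all genes. It was 974 after centring on the tested genes and 816 after quantile normalization. The lower calls, 688 in the main fit, were 696, 920, 562 and 575 under these settings, in the same order. No member was called between lines under any alternative run. The fit without the block gives no comparison of lines. Of 382 alternative values of the 32 uncalled members, 363 stayed uncalled within 1 SD of the line differences, 15 moved further uncalled, and 4 were called, 3 for Lypla1 and 1 for Zdhhc16. The 3 pairs and the lack of background calls limit what can be said of small differences and of dim genes such as Zdhhc1.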
